A study of Mus musculus with 2 samples.

Results

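The regions described here are the CTCF peaks at bidirectional promoters, where 2 protein-coding genes start within 1 kb of each other and are transcribed away from each other. A pair was taken from the GENCODE M21 annotation when its minus-strand gene lay on the left, its plus-strand gene on the right, and the 5' ends were at most 1 kb apart. A peak was a member when its summit lay within 1 kb of both 5' ends. The rule used positions and no signal. Of the 55759 peaks on chromosomes 1 to 19 in the optimal list, 390 (0.699%) were members, and the optimal list held 57220 peaks in all. These chromosomes carry 734 divergent pairs, which form 714 loci that share no gene. For the 11 members near more than 1 pair, the pair of named genes and then the pair with the nearest midpoint was used.

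CTCF binding was measured by chromatin immunoprecipitation and sequencing (ChIP-seq) in liver of B6NCrl mice at postnatal day 0, in 1 group with 2 replicates and no treatment named. The tissue was powdered liver pooled over several dissections, so hepatocytes, blood-forming cells and other liver cells contributed together. The labels give both replicates 1 biosample and 1 donor, and what spread they show may therefore be technical. Sex was not collected, and the control experiment named in the labels was not analysed here. The optimal list was made by the authors from both replicates with the irreproducible discovery rate (IDR), which keeps peaks whose rank repeats between lists. Peak signal is the authors' deposited value on a scale that is not stated, so it is used only to describe and rank peaks within a list. Library depth is unknown. Intervals below are 95% binomial intervals and cover counting error over peaks or pairs only.

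A bidirectional promoter is a short stretch of DNA from which 2 genes are read in opposite directions. Such promoters are mostly CpG islands without a TATA box, and they serve many housekeeping genes, for example of DNA repair and of mitochondria. CTCF is a zinc finger protein that reads an asymmetric DNA motif. It halts cohesin, the ring complex that extrudes chromatin loops, and the direction of the motif sets the side on which cohesin is held.

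The following sequences are shown because they are the CTCF sites under the strongest member peaks that hold the motif. Each line gives the 14-base CTCF core in capitals with 8 bases on either side, read 5' to 3' on the strand of the core, with its position on mm10 (GRCm38). The core was scored by its number of mismatches to the motif, and a peak was said to hold the core when the best match within 50 bp of the summit had at most 2.
Dtl/Ints7, chr1:191575984-191576013, minus strand: agctgccgCCACTAGGTGGCGCcactcccc
Wrap53/Trp53, chr11:69579482-69579511, plus strand: ctccctggCCTGCAGAGGGCGCataatttc
Ddias/Prcp, chr7:92874513-92874542, plus strand: cgggctggACAGGAGGGGGCGCtgttgtag
Nae1/Car7, chr8:104534653-104534682, plus strand: gcgcgcagCCAGTAGGGGGCGCcgacgctg
Tctn3/Entpd1, chr19:40612406-40612435, plus strand: tgatcccgCCGCTAGATGGCAGctggcaga
Exd1/Chp1, chr2:119547046-119547075, minus strand: ctaccccgGCCGCAGGGGGCGCtgggaatg
Abca17/Abca3, chr17:24351899-24351928, minus strand: gcccagctCCGACAGAGGGCGCtctgcgta
Nop14/Grk4, chr5:34660348-34660377, minus strand: acggttttCCTCCAGAGGGAGCccgagagc
Tas1r1/Nol9, chr4:152039251-152039280, plus strand: gacgccggCCGGGAGGGGGCGCcagccgcc
Trove2/Uchl5, chr1:143777140-143777169, plus strand: tctccggcCCGGCAGAGGGCGCtacggatc
The cores at Dtl/Ints7 and Nae1/Car7 match the motif without a mismatch. Those at Wrap53/Trp53, Tctn3/Entpd1 and Trove2/Uchl5 have 1 mismatch, and the other 5 have 2. The plus strand carries 6 of these 10 cores and the minus strand 4.

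At 4 pairs the whole stretch between the 5' ends is printed, because a strong summit lay in it and no annotated exon overlaps it. These lines give the plus strand of mm10, the base before the first letter starts the minus-strand gene, and the base after the last letter starts the plus-strand gene. Capitals mark the core, which at Nop14/Grk4 is on the minus strand and therefore appears as its reverse complement.
Nae1/Car7, chr8:104534638-104534688, plus strand: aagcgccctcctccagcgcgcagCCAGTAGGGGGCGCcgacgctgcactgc
Nop14/Grk4, chr5:34660149-34660378, plus strand: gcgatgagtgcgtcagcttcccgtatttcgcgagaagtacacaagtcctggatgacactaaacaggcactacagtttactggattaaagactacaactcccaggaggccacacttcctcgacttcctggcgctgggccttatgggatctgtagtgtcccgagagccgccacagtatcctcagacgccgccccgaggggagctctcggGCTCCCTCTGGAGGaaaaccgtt
Trove2/Uchl5, chr1:143777069-143777271, plus strand: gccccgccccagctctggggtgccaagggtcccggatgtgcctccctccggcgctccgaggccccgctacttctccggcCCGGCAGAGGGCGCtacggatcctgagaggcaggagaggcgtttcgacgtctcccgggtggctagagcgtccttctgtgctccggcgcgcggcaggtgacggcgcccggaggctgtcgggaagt
Vezt/Fgd6, chr10:94035818-94036000, plus strand: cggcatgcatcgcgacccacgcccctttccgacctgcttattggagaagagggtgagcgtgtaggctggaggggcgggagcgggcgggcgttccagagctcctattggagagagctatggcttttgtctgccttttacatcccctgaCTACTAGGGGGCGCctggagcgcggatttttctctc
At Nae1/Car7 the core takes up 14 of the 51 bases that separate the genes. Nae1 encodes a subunit of the enzyme that activates NEDD8, a ubiquitin-like protein, and Car7 a carbonic anhydrase. At Nop14/Grk4, where Nop14 serves ribosome assembly and Grk4 is a receptor kinase, the summit lay 15 bp from the Grk4 start. The Vezt/Fgd6 peak, over a core with 1 mismatch, had a signal of 301.8.

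A CTCF peak was found at 341 of the 734 pairs (46.5%, Clopper-Pearson interval 42.8% to 50.1%), and the remaining 393 pairs had none in the optimal list. With each replicate alone, cut to its 55759 strongest autosomal peaks, the share was 46.9% and 45.0%. Among single protein-coding promoters, which have no protein-coding start of the opposite strand within 1 kb, 44.5% of the CpG-rich and 14.3% of the CpG-poor had a summit within 1 kb. CpG-rich means that GC reached 50% and the CpG count 0.6 of the number expected from base composition, within 500 bp of the start or midpoint. Of the pairs, 84.1% were CpG-rich, against 41.2% of the single promoters. The share of all pairs with a peak was 1.93 percentage points above that of CpG-rich single promoters, with a 95% interval of the difference from -1.82 to 5.72 (Newcombe). CpG-rich pairs had a peak in 307 of 617 cases (49.8%, 45.7% to 53.8%), which is 5.23 points above CpG-rich single promoters (1.15 to 9.32). CpG-poor pairs had one in 34 of 117 cases (29.1%, 21.04% to 38.17%). Windows of 500 bp to each side of a CpG-rich pair's midpoint or of a CpG-rich single start held a summit in 41.3% and 35.9%. The difference was 5.42 points (1.45 to 9.49). Per kb of window the pairs held 0.302 summits and CpG-rich single promoters 0.261, a ratio of 1.16. The ratio was 1.12 and 1.08 in replicates 1 and 2, and 0.790 with only the stronger 50% of peaks, so its direction changed with that choice. With these stronger peaks 14.9% of pairs had a member.

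Up to a distance of 400 bp between the 5' ends, the share lay between 46.4% and 49.3%. It was 48.0% of 125 pairs at 1 to 50 bp, 46.4% of 181 at 51 to 100 bp, 48.5% of 200 at 101 to 200 bp and 49.3% of 140 at 201 to 400 bp. At 401 to 1000 bp it was 35.2% of 88 pairs (25.3% to 46.1%). These widest pairs were CpG-rich in 58.0%, against 84.0% to 92.9% in the other spacings, and their window in which a summit can qualify was narrower (median 1378 bp against 1731 to 1968 bp). In equal windows of 500 bp to each side of the midpoint the shares were 38.4%, 40.9%, 41.5% and 37.1% in the first 4 spacings. The share was 29.5% in the widest pairs, so these were lowest there too. The part of the CpG class was not tested. The median distance was 130 bp in pairs with a peak and 127 bp in pairs without.

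**Figure D1:**
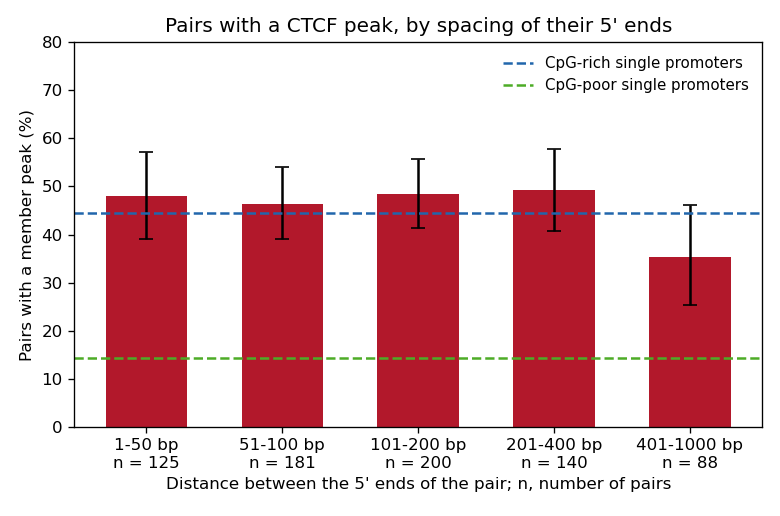
Percent of divergent pairs with a member peak (vertical axis) by the distance between their 5' ends in bp (horizontal axis, n pairs per bar); bars are shares of pairs and error bars are 95% Clopper-Pearson intervals. The first 4 bars stand between 46.4% and 49.3%, the bar of the widest pairs stands at 35.2%, and dashed lines give CpG-rich (44.5%) and CpG-poor (14.3%) single promoters.

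The strongest member lay at Dtl/Ints7, on chromosome 1 from 191575700 to 191576287, in an intron of Ints7. Its signal was 539.6 (rank 103 of the autosomal peaks), and 276.4 and 265.5 in replicates 1 and 2. Dtl directs a ubiquitin ligase that destroys replication licensing factors, and Ints7 is a subunit of the Integrator complex, which cleaves nascent RNA. At Wrap53/Trp53 the peak lay in an intron of Wrap53, on chromosome 11 from 69579269 to 69579643, 800 bp from the Wrap53 start and 904 bp from the start of Trp53, the gene of the tumour suppressor p53. Its signal was 537.0, with 274.0 and 264.9 in the replicates. At Ddias/Prcp, on chromosome 7 from 92874329 to 92874705, the summit lay in a noncoding exon of Prcp, a lysosomal peptidase gene, with a signal of 512.2 (273.5 and 239.3). All 3 peaks thus lay inside a gene body and not between the 5' ends.

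The peak of Nae1/Car7, on chromosome 8 from 104534521 to 104534810, was the strongest whose summit lay between the 5' ends. It had a signal of 511.0 (263.0 and 250.7 in the replicates) and stood 36 bp from the Nae1 start and 16 bp from the Car7 start. At Tctn3/Entpd1 (signal 466.9, replicates 227.4 and 238.8) it lay in the 5' UTR of Entpd1, which encodes the ATP-degrading surface enzyme CD39, opposite a gene of the ciliary transition zone. At Exd1/Chp1 it lay in the 5' UTR of Exd1 (462.8, replicates 252.3 and 209.3). Abca17/Abca3 is a pair of lipid transporter genes 882 bp apart, and its peak between them reached 457.0 (231.0 and 228.8), 45 bp from the start of Abca3. Summits between the starts were also found at Nop14/Grk4 (451.2), at Tas1r1/Nol9 (448.7), a taste receptor gene beside an rRNA processing gene, and at Trove2/Uchl5 (445.5), an RNA-binding protein gene beside that of a proteasome deubiquitinase. Over the 12 strongest members the replicates' signals differed by at most 1.21 times.

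The last 2 of the 12 strongest members had no core within 50 bp. At Mrps12/Sars2, the genes of a mitochondrial ribosomal protein and of the mitochondrial seryl-tRNA synthetase, the summit lay in a coding exon of Sars2 with a signal of 399.4 (209.3 and 189.0). At Gm10644/Asf1b, a predicted gene beside a histone chaperone gene, it lay between the 5' ends with 391.1 (198.2 and 192.1). Next among members without the core were Ccdc173/Phospho2 (380.0), Exosc8/Alg5 (345.1) and Bysl/Med20 (339.7), where Exosc8 belongs to the RNA exosome and Med20 to Mediator. All 5 had a best match with 3 mismatches. Of the 12 strongest members 10 held the core and 6 had their summit between the 5' ends.

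The median member was weaker than the median peak of the other promoter classes. The members' lowest signal was 4.19 and their highest 539.6, and the median was 33.9 between quartiles of 18.7 and 82.9. The median was 50.8 at CpG-rich single promoters (n = 3916 peaks), 67.5 at CpG-poor single promoters (n = 1693) and 71.5 over all autosomal peaks. The median member stood at percentile 28.4 of the autosomal peaks, and the median peak of CpG-rich single promoters at percentile 40.7. In the lists of replicates 1 and 2 alone, the medians were at percentiles 32.01 and 31.74 for peaks at the pairs and at 41.1 and 40.3 for CpG-rich single promoters, so the gap was larger than the difference between replicates. The strongest 25% of autosomal peaks held 48 members (12.3%) and the weakest 25% held 177 (45.4%). At the lower end stood Nit1/Pfdn2 (4.19), Ranbp10/Tsnaxip1 (4.41) and Nt5c3b/Klhl10 (5.31), each matched in only 1 replicate list. Each lay close to another optimal summit, at 0.213, 0.241 and 0.204 kb. All of these distances are below the members' median peak width of 284 bp, so the calls can overlap. At Nit1/Pfdn2 the neighbouring call overlapped the weak member.

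**Figure D2:**
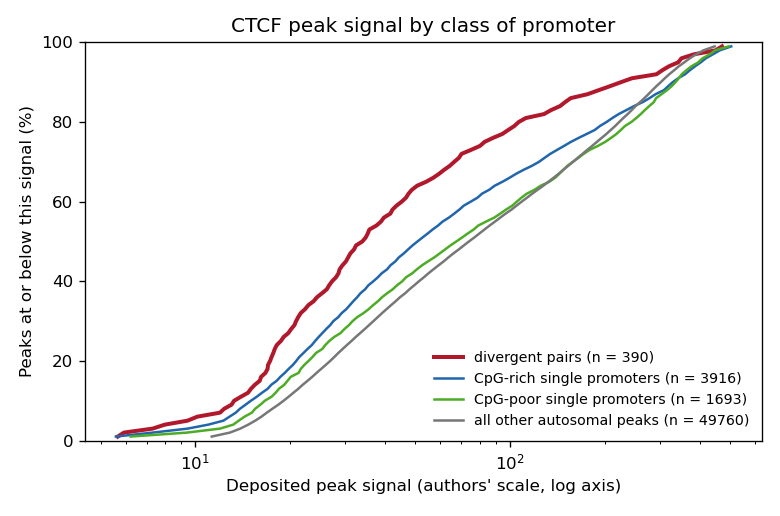
Cumulative percent of peaks (vertical axis) at or below a deposited peak signal (horizontal axis, log scale, authors' units) for members, peaks at CpG-rich and CpG-poor single promoters and all other autosomal peaks. The curve of the members lies left of the others over most of the range, with medians of 33.9, 50.8, 67.5 and 74.0 in that order, and the curves meet near the strongest peaks.

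The CTCF core was found in 109 of the 390 members (27.9%, Clopper-Pearson interval 23.5% to 32.7%). In windows displaced by 1 kb the share was 2.31%, and over all autosomal peaks it was 71.7%. The displaced windows all lay toward higher coordinates and were not matched to the members in base composition. Peaks at CpG-rich single promoters held it in 40.1% (38.5% to 41.6%), which put the members 12.1 points lower (95% Newcombe interval of members minus single promoters -16.6 to -7.22). Peaks at CpG-poor single promoters held it in 54.9%. Among the stronger 50% of autosomal peaks, 55.0% of 109 members and 60.7% of 1603 peaks at CpG-rich single promoters held it, and the interval of that difference, -15.3 to 3.67 points, spans 0. Each replicate list alone gave 28.5% and 29.3% at the pairs (SD 0.546 points, n = 2) against 39.5% and 39.1% at CpG-rich single promoters. The share was 27.9% at CpG-rich pairs and 28.6% at CpG-poor pairs. A match with at most 3 mismatches was present in 68.2% of members and in 17.9% of their displaced windows. At that limit the share was 76.4% at CpG-rich single promoters, 83.0% at CpG-poor single promoters and 90.9% over all autosomal peaks.

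The difference was also taken at equal distance from the nearer 5' end. At 0 to 100 bp the core was present in 26.9% of members and 36.9% of peaks at CpG-rich single promoters (difference interval -17.0 to -2.02 points). At 101 to 200 bp the shares were 35.8% and 37.0%, and the interval of the difference, -13.2 to 12.8 points, spans 0. At 201 to 500 bp they were 25.9% and 39.1% (-21.1 to -3.76), and at 501 to 1000 bp 27.4% and 46.7% (-28.8 to -7.77). The median signal of members was below that of single promoters in all 4 bins, at 39.9 against 62.8, 35.5 against 54.5, 31.0 against 42.4, and 29.3 against 50.8.

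Signal was higher where the core had fewer mismatches. The 2 members with a perfect core had 539.6 and 511.0, the 24 with 1 mismatch had a median of 245.2, and the 83 with 2 mismatches had 59.7. The median was 29.6 for 157 members with 3 mismatches, 28.1 for 109 with 4 and 16.6 for 15 with 5. Members with the core had a median of 84.4 and those without it 28.5. At CpG-rich single promoters the same medians were 125.2 and 34.4, so members were lower in either class. Of the 48 members in the strongest 25% of autosomal peaks, 35 held the core.

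**Figure D3:**
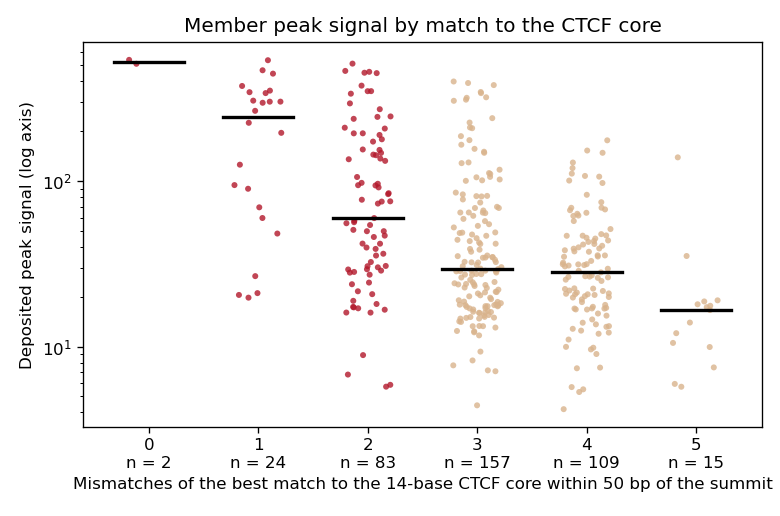
Deposited signal of each member peak (vertical axis, log scale, authors' units) by the number of mismatches of its best match to the CTCF core within 50 bp of the summit (horizontal axis); points are peaks and bars are medians. Medians fall from 525.3 without a mismatch to 245.2, 59.7, 29.6, 28.1 and 16.6 at 1 to 5 mismatches, while single peaks with 3 mismatches still reach 399.4.

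The rule bounds how far a member summit can lie from the starts. Within it, the median summit was 158.5 bp from the nearer 5' end, 349 bp from the farther and 266.5 bp from the midpoint, and 40.0% lay within 100 bp of the nearer start. Summits at or between the 5' ends made up 67 of 390 (17.2%, 13.6% to 21.3%), where this stretch takes up on average 11.9% of the window in which a summit can qualify. That figure stands for summits spread evenly over the window. Summits lay mostly near the starts that bound the stretch, so the comparison cannot show a preference for the stretch itself. In the replicate lists alone the share of summits between the 5' ends was 17.9% and 20.3%. The other 323 lay past the start of 1 of the genes, on the transcribed side, and left and right of the midpoint were used alike, with 193 of the 389 summits off the midpoint to the left. By annotation, 139 summits lay in a 5' UTR, 104 in an intron, 65 between genes, 51 in a coding exon and 31 in a noncoding exon. Members with the core between the 5' ends (n = 20) had a median signal of 165.4, and those with the core past a start (n = 89) had 75.4. Without the core the medians were 32.4 between the ends (n = 47) and 27.4 past a start (n = 234).

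**Figure D4:**
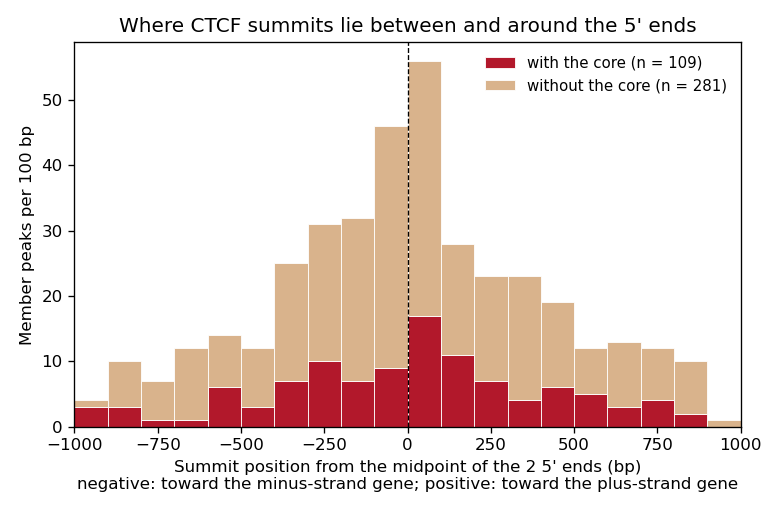
Number of member peaks per 100 bp (vertical axis) by the position of the summit from the midpoint of both 5' ends in bp (horizontal axis, negative toward the minus-strand gene), stacked for 109 peaks with the core and 281 without. Total counts are highest in the 100 bp on either side of the midpoint, and peaks with the core are spread over the whole range.

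Core direction at the pairs was not separated from even by intervals of this width. Of 102 members with 1 best match, the core pointed at the nearer 5' end in 57 (55.9%, 45.7% to 65.7%) and lay on the strand of the nearer gene in 46 (45.1%, 35.2% to 55.3%). Both intervals take in 50%, and the pointing interval also takes in the share of CpG-rich single promoters. Under the alternative settings the pointing share ran from 52.0% (replicate 2 alone) to 63.6% (35 of 55, stronger 50% of peaks). At CpG-rich single promoters it pointed at the start in 58.9% of 1496 and lay on the strand of the gene in 57.2%. The difference of members minus single promoters was -3.01 points for pointing (95% Newcombe interval -13.0 to 6.58) and -12.1 points for the strand (-21.8 to -2.14). In chromosome terms, 52 of the 102 cores were on the plus strand.

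Most members were found in both replicates. In the uncut replicate lists, which hold 300000 peaks each and so many weak ones, a summit within 100 bp was present in both for 331 of 390 members (84.9%, 80.9% to 88.3%) and for 91.4% (90.5% to 92.3%) of peaks at CpG-rich single promoters. Among the 55759 strongest autosomal peaks of each replicate, 253 members (64.9%, 59.9% to 69.6%) were matched in both, against 76.4% at CpG-rich single promoters, a difference of -11.5 points (95% Newcombe interval -16.5 to -6.71). The part of the members' lower signal in these gaps was not tested. In the uncut lists replicate 1 lacked a match for 29 members, replicate 2 for 36, and 6 of these lacked it in both. The members without a match in at least 1 list had a median signal of 13.9. A match in both lists was found for 102 of 109 members with the core and 229 of 281 without. Over the 331 matched members, the replicate signals had a Spearman's rho of 0.890, as a description across peaks of the same 2 libraries, and it was 0.939 at CpG-rich single promoters. Replicate summits lay a median of 18 bp apart in members, 13 bp with the core and 21 bp without. Tmem135/Fzd4, which includes a Wnt receptor gene, Iqch/Aagab and Wrn/Purg, which includes the helicase gene mutated in Werner syndrome, differed most in rank. Their signals in replicates 1 and 2 were 15.0 and 2.58, 17.0 and 2.83, and 13.8 and 2.75. A summit of the conservative list lay within 100 bp of 297 members (76.2%) and of 87.8% of all autosomal peaks. That list is no subset of the optimal list, since 48929 of its 53453 autosomal peaks have an optimal summit within 100 bp, and by itself it gave 357 peaks under the same rule, at 43.3% of pairs.

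**Figure D5:**
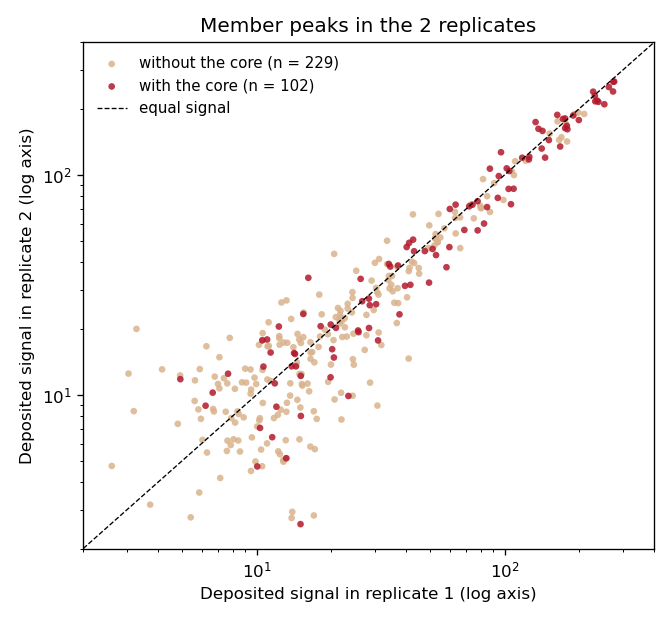
Deposited signal of the 331 matched members in replicate 2 (vertical axis, log scale) against replicate 1 (horizontal axis, log scale); each point is a peak, coloured by presence of the core, and the dashed line marks equal signal. Points lie close to the line at high signal and scatter below about 20 (rho 0.890), where most peaks lack the core.

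Genes were grouped by lists built on symbol patterns, so any list can hold genes of another function. The share of pairs with a peak is read against 46.5% of all pairs. The share of their peaks with the core is read against 27.9% of all members. Pairs in no list had a peak in 180 of 399 cases (45.1%). For DNA replication and repair the count was 22 of 43 pairs (51.2%), and 1 of their 21 peaks held the core. This list holds pairs that share a gene, such as Pms1/Ormdl1 and Pms1/Gm28778. Such pairs count separately, while a peak near both counts once, so the pairs are not all separate loci. The strongest was at Hscb/Chek2, the gene of a DNA damage checkpoint kinase, with 194.3 (94.7 and 98.7 in the replicates). It was followed by Orc3/Rars2, where Orc3 is part of the origin recognition complex, with 64.3 (34.9 and 31.6), and by Atm/Npat with 63.4. For cell cycle and mitosis it was 21 of 40 pairs (52.5%), with Cdc26/Prpf4 at 189.9, Ssna1/Anapc2 at 147.9 and Ddx5/Cep95 at 96.3. Cdc26 and Anapc2 both belong to the anaphase-promoting complex. Of the 23 peaks on this list 6 held the core, and the median signal was 26.5. For ubiquitin and proteasome genes it was 21 of 42 (50%), led by Pcid2/Cul4a, a cullin gene, at 310.2 and Fbxl6/Slc52a2 at 224.9.

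Mitochondrial ribosomal proteins had a peak at 10 of 18 pairs (55.6%, 30.8% to 78.5%), but 11 peaks had a median signal of only 16.04. Mrps12/Sars2 (399.4) and Mrps18b/Ppp1r10 (237.6) stood far above Ncapd2/Mrpl51 (31.1), the next. For the respiratory chain and mitochondrial import the count was 13 of 27 (48.1%), with Zswim7/Ttc19 at 294.5, Stxbp4/Cox11 at 150.3 and Uqcrh/Lrrc41 at 139.0. Ttc19 and Uqcrh serve complex III, and Cox11 delivers copper to complex IV. Cytosolic ribosomal proteins had a peak at 3 of 10 pairs, of which Polr3a/Rps24 reached 349.1 (171.8 and 179.5), Zwilch/Rpl4 26.01 and Mrpl49/Fau 18.3. Translation factors and tRNA synthetases had 11 of 17 pairs (64.7%, 38.3% to 85.8%), led after Mrps12/Sars2 by Atp6v1d/Eif2s1 (377.1), where the summit lay at the start of the gene of eIF2 alpha, and by Txndc9/Eif5b (208.6). All of these intervals take in 46.5%.

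Genes of RNA polymerases, splicing and RNA decay had a peak at 20 of 45 pairs (44.4%), and 9 of their 21 peaks held the core. They include Dtl/Ints7, Hnrnpdl/Enoph1 (375.3) and Polr3a/Rps24. Vesicle transport genes had 14 of 24 (58.3%), with Galns/Trappc2l at 186.7, and chaperones 9 of 19 (47.4%), with Cct5/Fam173b, which holds a chaperonin subunit gene, at 165.8. The list of ciliary, coiled-coil and repeat protein symbols had 24 of 48 (50%), led by Tctn3/Entpd1, Ccdc173/Phospho2 and Amdhd1/Ccdc38 (351.8). Zinc finger genes had 9 of 23 (39.1%), with Zfp597/Gm20695 at 155.1, and solute carriers 5 of 16 (31.2%). Chromatin modifiers had 4 of 15 (26.7%), all without the core and none above Setdb2/Cab39l at 59.1. Histone genes, whose members are near-identical copies and may share reads, had 4 of 14 (28.6%). None of the 5 histone peaks held the core, and after Bola1/Hist2h2ab (129.4) the next had 22.4. The matrix list holds 2 pairs, Col4a4/Col4a3 without a peak and Polk/Col4a3bp with 16.4, and Col4a3bp is a ceramide transfer protein that entered by its symbol.

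Of 30 pairs chosen as textbook head-to-head genes, 8 met the rule and 5 of these had a peak. Atm/Npat, which joins the kinase of the DNA double-strand break response to a histone gene activator, had 63.4 (37.2 and 26.1), between the 5' ends, 167 bp from Atm and 140 bp from Npat. Brca1/Nbr1 had 47.5 (31.0 and 19.2), 792 bp inside Nbr1. Hadha/Hadhb, the subunits of the mitochondrial trifunctional protein of fatty acid oxidation, had 26.3 (10.6 and 12.97) in an intron of Hadhb. Mrps18b/Ppp1r10 had 237.6 (117.7 and 119.6), 33 bp inside Mrps18b. Mrps12/Sars2 had a second, weak peak of 14.8 (7.51 and 8.38). There was none at Mcm4/Prkdc, whose nearest summit was 28.5 kb from the midpoint, or at Col4a4/Col4a3 (10.5 kb). At Plcd3/Acbd4 a peak of 675.7 stood 1.18 kb from the midpoint and was no member.

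Pairs with more than 1 member were 51 (15.0% of the 341 pairs with a peak), 42 with 2 and 9 with 3. Members are called peaks, and some calls overlap, so their number is not a number of separate sites. At Rbbp4/Zbtb8os 2 overlapping calls had summits 0.199 kb apart, and at Noc4l/Ddx51 0.202 kb. In both pairs 1 call was matched only in replicate 1 and the other only in replicate 2. How many of the 51 pairs hold overlapping calls was not counted. Uqcrh/Lrrc41 had signals of 139.0, 35.5 and 57.6, Gm10447/Shroom1 had 89.8, 17.5 and 64.4, and Utp18/Mbtd1 had 73.1, 56.4 and 19.7. These 3 stand for 9 pairs tied at 3 peaks and were taken in alphabetical order of chromosome name, not by signal. A summit lay past each of the starts in 8 of the 9. The closest starts with a peak were those of Dhrs1/Nop9 (3 bp apart, 13.3), Bag5/Apopt1 (4 bp, 41.3) and Eif2b1/Gtf2h3 (9 bp, 28.6), none with the core.

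Letters of other promoter motifs were counted on both strands in 300 bp around the midpoint of each pair. For single and all protein-coding starts the window was centred on the 5' end. The pairs here include CpG-rich and CpG-poor ones. Median GC in these windows was 64.3% at pairs with a peak and 60.3% at pairs without. It was 67.7% at CpG-rich single starts and 58.3% at all protein-coding starts. The ETS letters CCGGAAG were present at 28.4% of pairs with a peak and 28.2% without, against 17.9% of CpG-rich single starts and 11.7% of all protein-coding starts. The ZNF143 letters ACTACAA had 7.04% and 4.83%, against 2.91% and 3.31%. The CCAAT letters were present at 41.9% and 46.3%, against 33.5% and 36.2%, and the SP1 box GGGCGG at 72.4% and 63.9%, against 77.1% and 46.3%. For AAGATGGC (YY1) the shares were 7.62% and 8.91%, against 5.36% and 3.55%, for GCATGCGC (NRF1) 7.62% and 5.85%, against 5.75% and 3.31%, and for TATAAA 3.52% and 5.34%, against 4.04% and 10.7%. None of these motifs contains another on either strand. Pairs with a peak had a median GC share of 61.9% within the CpG window and 0.799 of the expected CpG, and pairs without had 59.0% and 0.757. A match is a description of letters and not evidence of a factor.

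At the limits of the rule, the outermost members were at AU022252/P3h1 (farther 5' end 999 bp away, signal 37.4) and Cdc26/Prpf4 (996 bp, 189.9). Just outside were peaks at Ccdc47/Ddx42 (1001 bp, 19.5) and Fig4/Ak9 (1007 bp, 187.0).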

How the data were processed

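Per the labels, both replicates are CTCF ChIP-seq of newborn liver on mm10. The authors deposited 5 narrowPeak lists (each replicate, pooled, conservative IDR and optimal IDR). Aligner, peak caller and thresholds were not given in the sources used here. As peak signal the authors deposited a value on an unstated scale. The deposited −log10 q values were not used in a result. Depth is unknown, so no interval on a signal is given. No column of another sample was used.

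Summits are peak start plus the deposited offset. Replicate lists (300000 peaks each) were cut to their 55759 strongest autosomal peaks when used alone, and summits within 100 bp were matched between lists. Reference sequence and genes are GRCm38 and GENCODE M21. Python 3.11.15 with numpy 2.4.6, pandas 2.3.3 and scipy 1.17.1 was used. The core search, the finding of pairs and the summit window rule were tested on planted data. The matching of summits between lists was not part of that check. Shares have Clopper-Pearson intervals and differences Newcombe intervals. No test was run, since 1 group has no contrast and peaks are not replicates.

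The members, the 16 gene lists and the 30 textbook pairs were chosen with earlier results of these data known. Named pairs are the 12 strongest members, the strongest 3 of each list, the textbook pairs, the strongest 5 without the core, 3 of the 9 pairs tied for most peaks, the weakest 3, the 3 with the largest rank ratio, those at the limits of the rule and the 3 with the closest starts. Vezt/Fgd6 is named for its sequence, by the rule for printed stretches. Alternatives were the conservative list, the stronger 50% of peaks, each replicate alone, and other distances, core settings, windows and promoter classes.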

Additional observations from a re-analysis of the deposited data

How the results depend on the processing

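No paired analysis was possible because the series has 1 group. Of the values recomputed under the alternatives, 35 stayed within 1.5 times for counts or within the spread given to them for shares, and 31 moved. Some moves follow from the setting itself. A cut to stronger peaks must lower the member count and raise the median percentile. A stricter or looser mismatch limit must lower or raise the core share. For the other moves the cause was not tested. Leaving out a replicate gave 369 to 379 members (390 with both), 45.0% to 46.9% of pairs with a peak, a median percentile of 31.74 to 32.01 (28.4 with both), the core in 28.5% to 29.3%, 17.9% to 20.3% of summits between the starts, a summit density over that of CpG-rich single promoters of 1.08 to 1.12 (1.16 with both) and 52.0% to 59.2% of cores pointing at the nearer start. The stronger 50% of peaks held 109 members at 14.9% of pairs, with a median percentile of 70.1, the core in 55.0%, 23.9% between the starts and a density ratio of 0.790, so the density ratio changed side of 1. Summits within 500 bp gave 245 members, 32.3% of pairs, percentile 31.7, 22.4% between and a ratio of 1.10. Summits within 2 kb gave 56.0% of pairs, percentile 32.8, the core in 37.6% and 12.7% between. Taking pairs with overlapping 5' ends too gave 631 members, percentile 31.5, 23.3% between and a ratio of 1.22. The percentile was 29.6 in the conservative list and 28.9 with 5' ends at most 500 bp apart. The core was present in 6.67% with at most 1 mismatch, 68.2% with at most 3, 22.1% within 25 bp and 34.1% within 100 bp. Against all single promoters the density ratio was 1.97, and in equal windows of 500 bp to each side 1.07. Depth is unknown, so weak peaks, where most members lie, cannot be given an error.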

Other observations

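Members often had company. Another optimal peak lay within 2 kb of 164 members (42.1%) and within 10 kb of 277 (71.0%), with a median distance of 3.71 kb. These counts include calls that overlap the member. At CpG-rich single promoters the shares were 39.6% and 72.0%, and over all remaining autosomal peaks, a class that still holds some near protein-coding starts, 19.8% and 60.3%. Wrap53/Trp53 had its next peak at 0.965 kb and Dtl/Ints7 at 7.93 kb.

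By chromosome, pairs with a peak ran from 29.6% of 27 pairs on chromosome 6 to 65.2% of 23 pairs on chromosome 19. Chromosome 4 had the most members, 40, at 29 of 47 pairs. No test was made across chromosomes.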
